A study of Mus musculus with 12 samples.

Results

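The 9 genes described here are Trp53, Trp73, Atm, Abl1, Cdkn1a, Cdk1, Birc5, Ccnd3 and Myc, a set of p53, DNA damage and proliferation genes that was chosen by symbol from the nCounter mouse cancer immune panel. Of the 9, 8 have a row among the 750 genes of the values table, and Trp73 was not analysed here. The values are normalized mRNA counts, made by counting color-coded probes hybridized to 100 ng of tumor RNA without amplification. The question was whether olaparib, a PARP inhibitor, moved these genes at 3 days.

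All 12 tumors came from a mouse model of triple-negative breast cancer in which K14-Cre deletes floxed alleles of Brca1 (f/f) and Trp53 (f/f), so every group, vehicle included, shares the loss of Brca1 and p53. Cre is driven by the K14 promoter, which is active in epithelium, and stromal and immune cells of the host keep both genes. Tumor pieces were transplanted to mammary fat pads of female FVB/129P2 mice, which are syngeneic, and grew to between 150 and 300 mm3. There were 4 groups of 3 tumors. Vehicle tumors received DMSO in saline into the peritoneum daily and saline into the tumor once. Olaparib tumors received 50 mg/kg olaparib daily with intratumoral saline. ADU-S100 tumors received 1 intratumoral injection of 50 μg of this STING agonist in 40 μl on the first day, with daily DMSO. Combination tumors received both drugs. The ages of the mice were not given in the sources used here, and no tumor with intact p53 was measured, so that no comparison here tests what p53 does.

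As background, DNA breaks activate the kinase ATM, which stabilizes p53, and p53 raises transcription of Cdkn1a, the gene of the cyclin-dependent kinase inhibitor p21. Through p21, p53 lowers a group of cell cycle genes that includes Cdk1 and Birc5. PARP inhibitors leave breaks that cells without BRCA1 repair poorly, and cells without p53 lack this arm of the checkpoint.

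Cdk1 and Birc5 are both known as genes of late cell cycle transcription, and the first 250 bases before their RefSeq start sites on GRCm38.p6 are shown because these were the members with the lowest values under olaparib relative to tumors without it. Capitals mark CHR elements (TTTGAA) and CCAAT boxes (CCAAT), searched on both strands. A CCAAT box on the opposite strand reads ATTGG here. The Cdk1 window is chr10:69352913-69353162 on the minus strand, and the Birc5 window is chr11:117848987-117849236 on the plus strand.
Cdk1: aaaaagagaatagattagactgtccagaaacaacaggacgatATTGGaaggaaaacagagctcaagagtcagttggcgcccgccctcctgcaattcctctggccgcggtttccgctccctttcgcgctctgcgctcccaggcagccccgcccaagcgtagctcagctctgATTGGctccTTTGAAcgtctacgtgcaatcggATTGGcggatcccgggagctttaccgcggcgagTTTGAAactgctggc
Birc5: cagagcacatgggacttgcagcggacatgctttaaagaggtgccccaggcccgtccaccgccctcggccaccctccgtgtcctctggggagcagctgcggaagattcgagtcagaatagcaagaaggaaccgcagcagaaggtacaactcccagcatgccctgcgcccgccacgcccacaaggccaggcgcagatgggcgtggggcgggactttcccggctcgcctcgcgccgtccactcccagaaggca
The Cdk1 window held 2 CHR elements, 71 and 15 bases before the start, and 3 CCAAT boxes, 208, 80 and 48 bases before it. The Birc5 window held 0 of either. Among 32851 mouse promoter windows of this length, 16.0% held TTTGAA and 33.8% held CCAAT. Windows were at hand for 8 of the 9 genes, Trp73 among them, and none for Myc, which was not searched. Among the other windows of the members, 1 of Abl1 held TTTGAA and 1 each of Trp53, Atm and Ccnd3 held CCAAT. A match of letters is not evidence of binding, and 0 matches says only that these letters are not in this window.

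Depth differed widely between tumors, and both extremes of the scaling factor lay in the olaparib group. Apart from a floor of 1, the values of a tumor are multiples of the normalized value of 1 count, which acts as its scaling factor. Dividing by it gave whole numbers, within 0.01 of a count, for at least 99.87% of values. This factor ran from 0.589 in olaparib tumor 1521 to 10.48 in olaparib tumor 1517, a 17.8-fold range, and the recovered counts summed to between 106206 in olaparib tumor 1517 and 1519471 in vehicle tumor 1269. All 8 members reached 20 in 3 or more tumors, the filter that left 689 genes to test. Tumor numbers begin with 12 or 15, which is called the number series here, and the labels do not say what it stands for. The labels do not say whether each tumor came from its own mouse, and p-values measure only the spread between these tumors.

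Trp53 encodes p53, the transcription factor at the center of this set. Its normalized counts were 432, 1114 and 603 in the vehicle tumors 1269, 1529 and 1536. They were 1876, 3929.8 and 289 in the olaparib tumors 1510, 1517 and 1521. Olaparib tumors thus held both the highest and the lowest Trp53 of all 12 tumors, and the vehicle values lay between them. The ADU-S100 tumors 1506, 1512 and 1513 had 2181.8, 1175 and 900.3, and the combination tumors 1251, 1270 and 1539 had 412, 559 and 562, all 3 below every ADU-S100 tumor. Trp53 RNA was counted in every tumor, with 375 to 963 recovered counts. The position of the probe relative to the deleted exons was not given in the sources used here, and host cells add RNA, so these values do not check the deletion. In bulk RNA, fewer cells of a type and less RNA per cell cannot be told apart.

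Olaparib tumors averaged 2032 ± 1825 for Trp53 and vehicle tumors 716 ± 354 (SD, n = 3 each). On the log2(normalized count + 1) scale, the scale of all differences below, the difference was 0.96 (SE 0.80, limma adjusted p = 0.663). Its 95% confidence interval ran from -0.81 to 2.72, on both sides of 0. Without tumor 1521 the difference was 2.03 (limma adjusted p = 0.0487), past the threshold of 0.05, in a fit that called 7.98% of all genes (55 of 689). Without tumor 1517 it was 0.15, and with each tumor scaled to the same median it was 0.61. The 2 tumors that set this value are those with the lowest and the highest scaling factor.

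**Figure D1:**
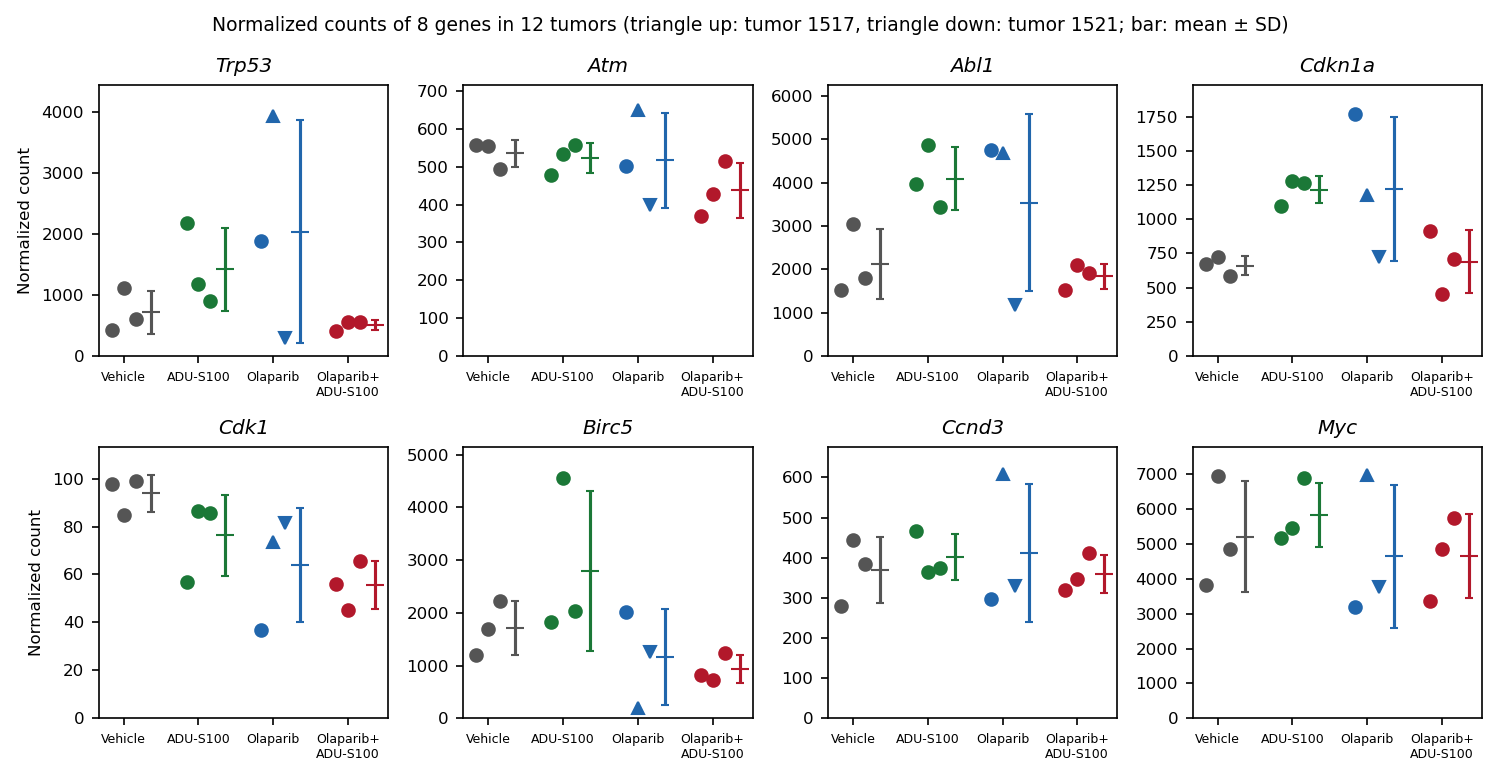
Normalized counts (vertical axes, linear, from 0) of the 8 measured genes in 12 tumors, by treatment group; each point is 1 tumor, and the bar beside each group is the mean ± SD (n = 3). Tumors 1517 (triangle up) and 1521 (triangle down) hold the highest and the lowest Trp53, at 3929.8 and 289, and the 3 Cdk1 values under olaparib lie below the 3 under vehicle.

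Trp53 followed the scaling factor more closely than most genes did. Over the 12 tumors, its log2 value and the log2 factor had a Pearson r of 0.95 and a Spearman rho of 0.93. Without tumors 1517 and 1506, the farthest from the median factor, r was 0.94. It ranked 16 of 689 genes by r, and the median gene had 0.59. The factor is a part of each normalized value, so the relation is not one between separate measurements and r is given without a test. Before scaling, Trp53 counts spanned a 2.57-fold range over the tumors, against 13.6-fold after it. Cdk1 had an r of -0.14 with the factor, a rho of -0.29 and an r of -0.24 without the same tumors. Its counts spanned a 20.4-fold range before scaling and 2.68-fold after it. With the log2 factor in the fit as a covariate, the olaparib difference of Trp53 was -0.28. Whether the factor produced the Trp53 differences was not tested.

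**Figure D2:**
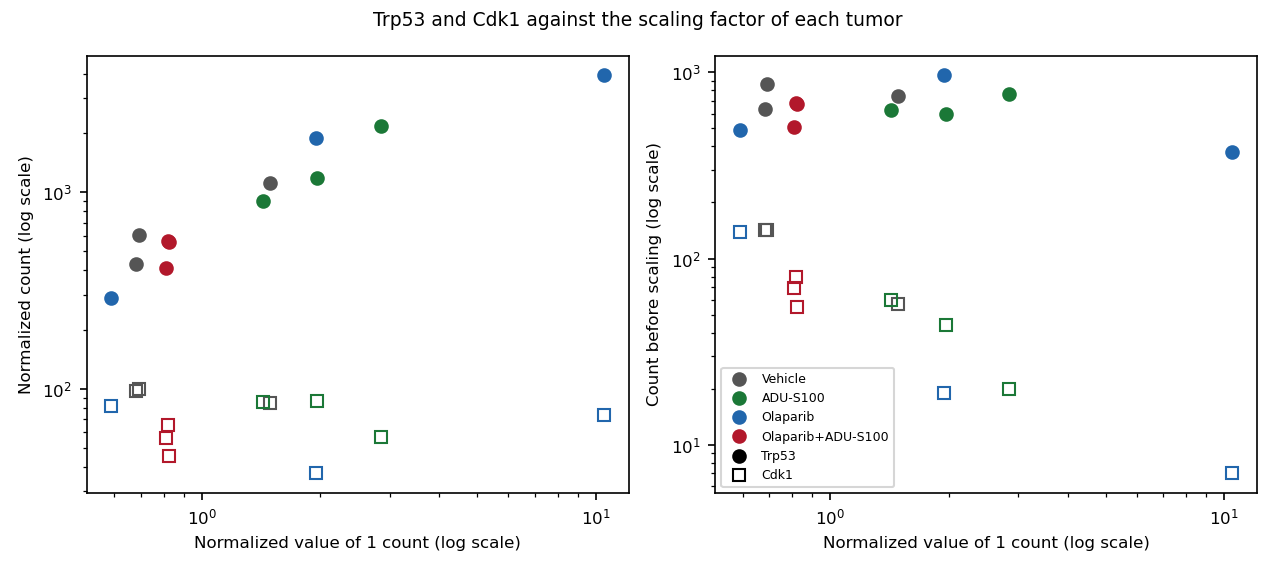
Normalized counts (left) and counts before scaling (right) of Trp53 (filled circles) and Cdk1 (open squares) against the normalized value of 1 count in each tumor, all axes on log scales, colored by treatment group. Normalized Trp53 climbs along the factor (r = 0.95) while its counts before scaling stay between 375 and 963. Cdk1 counts before scaling fall along the factor, from 138 in tumor 1521 to 7 in tumor 1517.

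Atm, the kinase activated by double-strand breaks, was among the steadiest members. Vehicle tumors had 557, 555 and 493, and olaparib tumors 501, 649.7 and 400.1, on both sides of the vehicle range. ADU-S100 tumors had 479, 532 and 558, and combination tumors 370.2, 428 and 515. The highest value of the 12 was 1.76 times the lowest. The olaparib difference was -0.08 (SE 0.33, limma adjusted p = 0.947), with an interval from -0.81 to 0.66. It was -0.42 with median scaling, -0.38 with quantile normalization, -0.27 with the factor as a covariate, -0.25 without tumor 1517 and 0.09 without tumor 1521.

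Abl1, a tyrosine kinase that responds to DNA damage among other signals, had 1529, 3043 and 1792 in vehicle tumors and 4749.9, 4684 and 1188 in olaparib tumors. Olaparib tumors 1510 and 1517 exceeded all vehicle tumors, and tumor 1521 was the lowest of the 12. The difference was 0.55 (SE 0.54, limma adjusted p = 0.710) and the groups overlapped. It was 0.22 without tumor 1510, 0.23 without tumor 1517, 0.35 without vehicle tumor 1269, 0.85 without vehicle tumor 1529 and 1.22 without tumor 1521, and 0.21 with median scaling. ADU-S100 tumors had 3968, 4871 and 3427, all above every vehicle tumor, and combination tumors 1517, 2096 and 1905, all below every ADU-S100 tumor. Abl1 had an r of 0.83 with the scaling factor, ranked 158 of 689 genes, a rho of 0.92 and an r of 0.98 without tumors 1517 and 1506. With the factor as a covariate, its olaparib difference was -0.08.

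Cdkn1a had 671, 727 and 586 in vehicle tumors and 1771, 1174 and 723 in olaparib tumors. Olaparib tumors 1510 and 1517 lay above the vehicle range and tumor 1521 within it, just under the highest vehicle value. ADU-S100 tumors had 1099, 1277 and 1266, and combination tumors 912, 453 and 708. The group means were 1223 with olaparib, 1214 with ADU-S100, 661 with vehicle and 691 with both drugs. The olaparib difference was 0.80 (SE 0.42, limma adjusted p = 0.582), with an interval from -0.11 to 1.71. It was 0.48 without tumor 1510, 0.45 with median scaling, 0.42 with quantile normalization and 0.62 with the factor as a covariate. Without tumor 1521 it was 1.13 (limma adjusted p = 0.0869). Of the 8 members it had the smallest p for this comparison, ranked 85 of 689 genes.

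Cdk1, the first of the proliferation genes, encodes the kinase that drives entry into mitosis. Vehicle tumors had 97.5, 84.7 and 99.1, and olaparib tumors 37.0, 73.4 and 81.3, all 3 below all 3 vehicle tumors. Cdk1 was the 1 member whose olaparib and vehicle values did not overlap, and 4.79% of all genes tested had no overlap. The difference was -0.62 (SE 0.39, limma adjusted p = 0.582). ADU-S100 tumors had 57.0, 86.4 and 85.6, and combination tumors 55.9, 45.3 and 65.6. The combination values also lay below every vehicle tumor, with a difference of -0.76 (SE 0.39, limma adjusted p = 0.673), where 20% of genes had no overlap. Both comparisons share the vehicle tumors. Cdk1 was the dimmest member, and counting error was large at this depth. The 73.4 of tumor 1517 rests on 7 counts, with an exact 95% Poisson interval of 29.5 to 151, and the 37.0 of tumor 1510 rests on 19 counts, with an interval of 22.3 to 57.8. The interval of tumor 1521, 68.3 to 96.1 on 138 counts, covers the lowest vehicle value. These intervals cover counting error only. The order of the olaparib and vehicle tumors therefore rests on differences that, in tumors 1517 and 1521, lie within counting error. Without tumor 1510 the difference was -0.27, and it was -0.97 with median scaling and -1.32 with quantile normalization.

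Birc5 encodes survivin, a protein of cell division that also restrains apoptosis. Vehicle tumors had 1195, 1701 and 2223, and olaparib tumors 2018, 199 and 1261, so that 1 olaparib tumor was the lowest of all 12 and the other 2 lay within the vehicle range. The low tumor is 1517, where Birc5 had 19 counts and an interval of 120 to 311, still under every other tumor. The difference was -1.05 (SE 0.75, limma adjusted p = 0.623) and -0.05 without tumor 1517, -1.72 without tumor 1510 and -0.23 with the factor as a covariate. ADU-S100 tumors had 1829, 4552 and 2030.3, and combination tumors 821, 736 and 1242. Across the tumors Birc5 had the widest range of the members, 22.9-fold.

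Ccnd3, a D-type cyclin of G1 phase, had 279.7, 443 and 385 in vehicle tumors and 296, 608 and 331 in olaparib tumors. Myc, a transcription factor of growth, had 3831, 6944 and 4853 in vehicle tumors and 3195, 6989.8 and 3764 in olaparib tumors. Both genes overlapped between the groups, and tumor 1517 was the highest of the 12 for each. Their differences were 0.11 (SE 0.38, limma adjusted p = 0.939) and -0.21 (SE 0.42, limma adjusted p = 0.850). The sign of Ccnd3 turned with median scaling (-0.24), quantile normalization (-0.17), the number series as a block (-0.04), the factor as a covariate (-0.23) and without tumors 1269 (-0.08) or 1517 (-0.21), and that of Myc without tumors 1529 or 1510 (0.02 each). Myc was -0.55 with median scaling, -0.38 with quantile normalization, -0.52 with the factor as a covariate and -0.54 without tumor 1517. In ADU-S100 tumors Ccnd3 lay between 363 and 467 and Myc between 5158 and 6879. In combination tumors they lay between 318 and 411 and between 3363 and 5733.

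Taking the 8 genes together, olaparib against vehicle gave 0 members past the threshold, against 0% of the 689 genes tested (0 calls by limma after Benjamini-Hochberg adjustment, 50 genes at an unadjusted p under 0.05 of which 0 were members, and 0 calls by the unmoderated group test of the methods with Benjamini-Hochberg or Benjamini-Yekutieli adjustment). Of the members, 4 were higher and 4 lower, with a median difference of 0.02, while the median of all genes was 0.45. With the factor as a covariate, 7 were lower and 1 higher, with a median of -0.25 against -0.06 for all genes. The gene with the smallest p was Nfkbia, an inhibitor of NF-kappaB, at 1.60 (limma adjusted p = 0.577). The standard errors of the members ran from 0.33 to 0.80, so that the intervals of all 8 include changes in both directions.

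**Figure D3:**
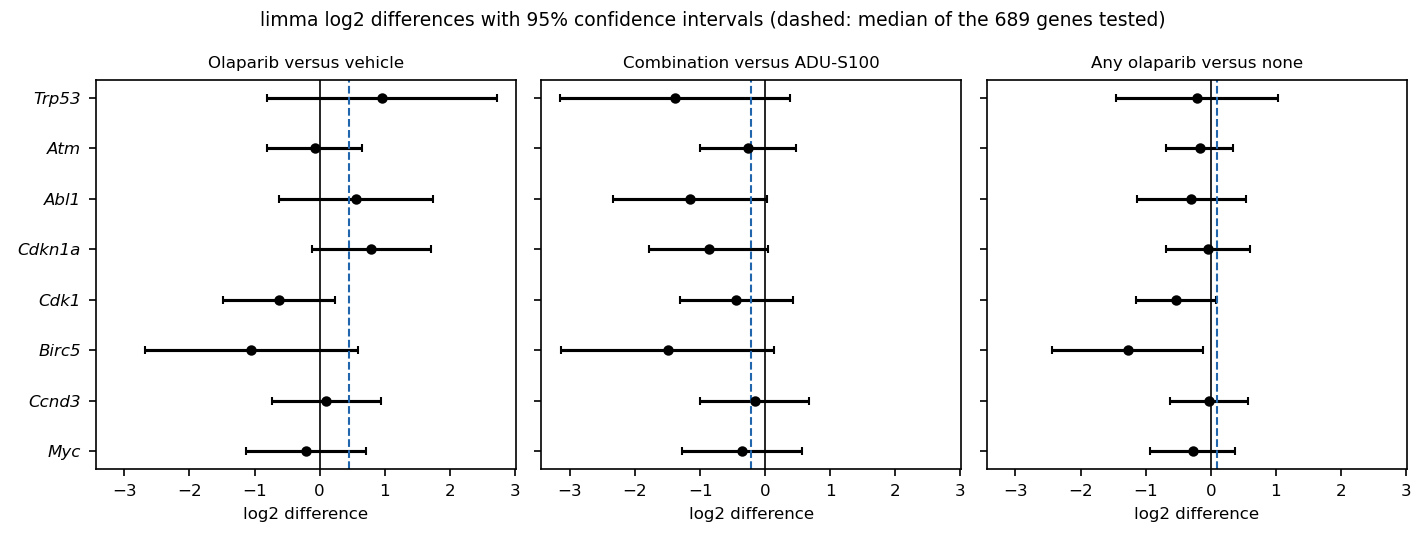
Limma log2 differences (points) with 95% confidence intervals (bars) of the 8 genes for olaparib versus vehicle, combination versus ADU-S100, and any olaparib versus none; the solid line is 0 and the dashed line the median of all 689 genes. Among the intervals drawn, the one that leaves out 0 is that of Birc5 in the comparison of all olaparib tumors with the rest, from -2.43 to -0.11.

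Olaparib was also given on top of ADU-S100, which offers a further comparison of tumors with and without it. All 8 members were lower in the combination than with ADU-S100 alone, with a median of -0.65 against -0.22 for all genes, and 0 passed the threshold, against 0% of genes (0 calls, 63 at an unadjusted p under 0.05). With median scaling, with quantile normalization and with the factor as a covariate, 7 were lower and 1 higher. The number series was uneven here, as 2 combination tumors and 0 ADU-S100 tumors had numbers beginning with 12. With this series as a block, 6 members were lower and 2 higher. The values of Trp53, Abl1, Cdkn1a and Birc5 did not overlap between these groups. Lack of overlap was common here, at 31.3% of all genes, so that 4 of 8 members is not far above the background. The differences were -1.38 for Trp53 (SE 0.80, limma adjusted p = 0.566), -1.15 for Abl1 (SE 0.54, limma adjusted p = 0.531), -0.87 for Cdkn1a (SE 0.42, limma adjusted p = 0.531) and -1.50 for Birc5 (SE 0.75, limma adjusted p = 0.536). Cdk1 overlapped through ADU-S100 tumor 1506, with a difference of -0.44 (SE 0.39, limma adjusted p = 0.676). That of Cdk1 was -0.24 with median scaling and -0.27 with quantile normalization. With the number series as a block the differences were -0.91 for Abl1, -0.83 for Cdkn1a, -0.35 for Cdk1 and -1.04 for Birc5. The Trp53 difference was also smaller in size with that block. The part of the number series in these differences was not tested. The groups also differed in other measures. The scaling factor was 1.427 to 2.848 with ADU-S100 and 0.810 to 0.824 in the combination, and with it as a covariate the differences were -0.21 for Trp53, -0.56 for Abl1, -0.70 for Cdkn1a, -0.51 for Cdk1 and -2.27 for Birc5. All 11 stromal and endothelial markers tested were lower in the combination (0 passed, median -0.94), with sums of 16764 to 31600 against 38423 to 67346. Their part in the members' values was not tested.

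With all tumors that received olaparib set against all that did not, 6 against 6, the values of Cdk1 and Birc5 lay furthest below 0. Birc5 differed by -1.27 (SE 0.53, limma adjusted p = 0.548). Cdk1 differed by -0.53 (SE 0.28, limma adjusted p = 0.711). In an exact two-sided permutation of the olaparib label within tumors with and without ADU-S100 (400 splits, smallest possible p = 0.005), Cdk1 had p = 0.015 and Birc5 p = 0.035, both with an adjusted p of 0.596 over 689 genes. Neither held after adjustment, and 52 genes had an unadjusted permutation p under 0.05. All 8 members were lower with olaparib, with a median of -0.25 against 0.10 for all genes, and 0 were called, against 0% of genes (0 calls, 52 at an unadjusted limma p under 0.05). For Trp53, Abl1, Cdkn1a and Ccnd3 this is an average of a higher value with olaparib alone than with vehicle and a lower one in the combination than with ADU-S100, and Cdkn1a (-0.04) and Ccnd3 (-0.03) were near 0. No member had groups that did not overlap, which held for 0% of genes. Without tumor 1521, 4 members were lower and 4 higher, and without vehicle tumor 1529, 6 were lower and 2 higher. Birc5 was -0.77 without tumor 1517. All 11 stromal and endothelial markers tested were also lower with olaparib here, with a median of -0.84, and 0 passed.

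ADU-S100 alone was set against vehicle to place the olaparib values. Abl1 differed by 0.996 (SE 0.54, limma adjusted p = 0.809) and Cdkn1a by 0.88 (SE 0.42, limma adjusted p = 0.809), both without overlap, which held for 14.9% of genes. Trp53 differed by 0.995 (SE 0.80, limma adjusted p = 0.809) and overlapped. With median scaling the differences of Abl1, Cdkn1a and Trp53 were 0.59, 0.47 and 0.59, with the factor as a covariate those of Abl1 and Trp53 were 0.46 and -0.07, and Trp53 was 0.63 without tumor 1506. Of 8 members 0 were called, against 0% of genes (0 calls, 33 at an unadjusted p under 0.05). The combination against vehicle likewise called 0 members, against 0% of genes (0 calls, 53 at an unadjusted p under 0.05, and by that unmoderated test 3 calls with Benjamini-Hochberg and 0 with the Benjamini-Yekutieli adjustment). The combination against olaparib called 0 members, against 0% of genes (0 calls, 50 at an unadjusted p under 0.05), and 0 members had values without overlap, against 12.8% of genes. Without olaparib tumor 1521, Trp53 was called there at -2.42 (limma adjusted p = 0.0319), in a fit that called 7.84% of all genes (54 of 689).

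Trp53, Abl1 and Cdkn1a were each higher on average with either drug alone than with vehicle or with both drugs. All 3 tumors with numbers beginning with 12 were in the vehicle or combination group. Whether the number series produced this pattern was not tested. The interaction term, the olaparib difference with ADU-S100 minus that without, was -1.66 for Cdkn1a (SE 0.59, limma adjusted p = 0.346), -1.70 for Abl1 (SE 0.76, limma adjusted p = 0.436) and -2.34 for Trp53 (SE 1.14, limma adjusted p = 0.439). No member passed the threshold, against 0% of genes (0 calls, 75 at an unadjusted p under 0.05), and the median of the 8 members was -0.36 against -0.55 for all genes. The other 5 members lay between -0.45 and 0.18. Without tumor 1521 all 3 terms passed it, at -2.00 for Cdkn1a (limma adjusted p = 0.0364), -2.37 for Abl1 (limma adjusted p = 0.0225) and -3.42 for Trp53 (limma adjusted p = 0.0198), in a fit that called 12.5% of all genes (86 of 689). Leaving out another tumor weakened them most to -1.35 for Cdkn1a and -1.37 for Abl1, both without tumor 1510, and to -1.54 for Trp53 without tumor 1517. With the scaling factor as a covariate the terms were -1.33 for Cdkn1a, -0.48 for Abl1 and 0.07 for Trp53, and with median scaling they were -1.11, -1.15 and -1.79. The median term of the 8 members was 0.19 with median scaling (0.003 for all genes) and -0.05 with quantile normalization (0.003). It was 0.06 with the number series as a block (-0.43 for all genes), with 4 lower and 4 higher. With the factor as a covariate it was also 0.06 (0.40 for all genes).

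The members were also compared with each other across tumors. With each tumor scaled to the same median, Cdk1 and Ccnd3 had a Pearson r of 0.90 over the 12 tumors, Atm and Cdk1 0.89, Ccnd3 and Myc 0.88, and Cdk1 and Myc 0.84. Trp53 and Abl1 had 0.71. Trp53 and Cdkn1a had 0.23, and Trp53 and Cdk1 -0.40. On deviations from the group means, Cdk1 and Ccnd3 had 0.92, Trp53 and Abl1 0.57, Trp53 and Cdkn1a -0.13, and Trp53 and Cdk1 -0.61. These are descriptions, since all pairs share tumors, depth and scaling, and they move with the scaling. On the deposited values Cdk1 and Ccnd3 had 0.15, Trp53 and Abl1 0.91, Trp53 and Cdkn1a 0.65, and Trp53 and Cdk1 -0.24. They also move with single tumors. With median scaling but without tumors 1510 and 1517, Trp53 and Cdk1 had -0.05, Trp53 and Cdkn1a 0.19, and Trp53 and Abl1 0.80.

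**Figure D4:**
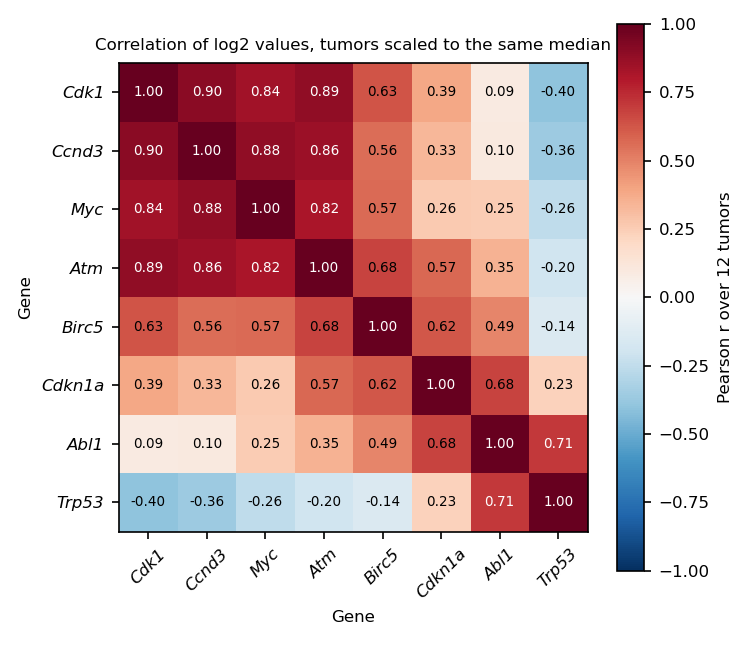
Pearson r between the log2 values of each pair of the 8 genes over 12 tumors, each tumor scaled to the same median; color and number give r. Cdk1, Ccnd3, Myc and Atm form a block with r from 0.82 to 0.90, and Trp53 is highest with Abl1 at 0.71.

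Over the same 12 tumors and scaling, the genes most like each member among the 688 others were named by r. For Trp53 they were Il6ra (0.95), Il1rapl2 (0.94) and Il11ra1 (0.94). For Abl1 they were Cklf (0.88), Egr2 (0.88) and Hras (0.87), and for Cdkn1a they were Pvr (0.91), Lif (0.88) and Atf2 (0.88). Cdk1 was closest to Tgfb1 (0.96), Nup107 (0.96) and Ewsr1 (0.92). Nup107 was also the closest to Ccnd3 (0.90) and Myc (0.90), where it was followed by Cdk1 (0.90) and Bax (0.89) for Ccnd3 and by Ccnd3 (0.88) and Tgfb1 (0.85) for Myc. Genes close to Atm included Ewsr1 (0.94) and Tmed1 (0.93), and Birc5 was closest to Plau (0.89), S100a8 (0.89) and Tfrc (0.86).

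Of 26 listed p53 target genes, 6 were tested, and 0 rose or fell past the threshold in olaparib against vehicle, with 4 higher, 2 lower and a median of 0.34. Beside Cdkn1a, the death receptor Tnfrsf10b differed by 0.64 (limma adjusted p = 0.630), Bid, a proapoptotic BCL2 protein, by -1.28 (limma adjusted p = 0.582), and the matrix protein Thbs1 by -0.53 (limma adjusted p = 0.710). Bid was at 542, 199 and 1050 in olaparib tumors 1510, 1517 and 1521, against 1033 to 1486 with vehicle. The 199 of tumor 1517 rests on 19 counts. Of 7 tested genes in the list of BCL2 family and caspase genes, which also held the member Birc5, 0 passed in either direction. In that list 4 were higher and 3 lower, with a median of 0.06. Bcl2l1, which opposes apoptosis, differed by 1.25 (limma adjusted p = 0.582) and Bcl2 by 0.79 (limma adjusted p = 0.623). Bcl2l1 was at 2756 in olaparib tumor 1517 and at 826 and 516 in tumors 1510 and 1521, against 411 to 505 with vehicle. Of 5 DNA damage genes, among them the members Trp53, Atm and Abl1, 0 passed, 3 were higher and 2 lower, with a median of 0.02. Hmgb1, a chromatin protein, differed by -0.39 (limma adjusted p = 0.710). The cell cycle list had 4 tested genes, all of them members (Cdk1, Birc5, Ccnd3 and Myc), with 0 passing, 1 higher, 3 lower and a median of -0.41. The median of all genes in this comparison was 0.45.

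Markers of cell types in the tumors were set beside these values. Of 11 stromal and endothelial markers tested, 0 passed, 10 were lower and 1 higher in olaparib than in vehicle tumors, and their summed level ran from 7653 to 51653 with olaparib and from 19380 to 101338 with vehicle. Of 11 leukocyte markers tested, 0 passed, 9 were higher and 2 lower, with sums over the 12 listed markers from 2004 to 3511 and from 1371 to 3601. The 3 epithelial markers Epcam, Cdh1 and Muc1 summed to between 12324 and 22177 with olaparib and between 10802 and 21499 with vehicle, and none of the 3 was at 0 in any tumor. The endothelial marker Pecam1 was at 8625 in olaparib tumor 1517, from 823 recovered counts, and at 105 and 299.9 in tumors 1510 and 1521, against 346 to 2359 with vehicle. The highest vehicle value, in tumor 1529, came from 1587 recovered counts. Cdh5, Eng, Tek and Kdr were also highest of the olaparib group in tumor 1517, the tumor with the highest Trp53 and the highest scaling factor. In the ADU-S100 group Pecam1 was highest in tumor 1506, at 1985. Tumors 1529 and 1506 likewise had the highest factor of their groups. The part of these markers in the members' values was not tested.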

How the data were processed

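RNA from 12 mouse breast tumors (4 groups of 3) was measured on the nCounter mouse cancer immune panel. The values, deposited as a linear signal, are counts that the authors processed with nSolver 4.0 by quality control, background correction and scaling to positive controls and housekeeping genes. Groups were taken from the sample labels. Members were matched by symbol, and the members and gene lists were chosen with earlier results of these data known. Counts before scaling were recovered per tumor from the step between low values, and because in some tumors the lowest value was not the step itself, count models were not used. Total recovered counts were 106206 to 1519471 per tumor.

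Values were analysed as log2(normalized count + 1) for the 689 of 750 genes that reached 20 in 3 or more tumors. Limma 3.58.1 in R 4.3.3 fitted 1 mean per group over all 12 tumors, without covariates. Tests were two-sided, with Benjamini-Hochberg adjustment over 689 genes and a threshold of 0.05. Any olaparib against none was also tested by exact permutation. With 3 tumors against 3, an exact permutation test cannot go below 0.1. Limma was tested on simulated data. Genes named beside the members were the 3 most like each member, up to 4 per list with the smallest p for olaparib against vehicle, the smallest p overall and the cell type markers; Pecam1 was singled out after its values were seen, and 1 gene of these is not reported here. Alternatives were a pseudocount of 10, no filter, median scaling, quantile normalization, the tumor number series as a block, the scaling factor as a covariate, an unpaired t-test, and leaving out each tumor. The t-test assumed equal variances on the log2 values, whereas the methods of the paper use a Welch correction where variances differ. It was adjusted by Benjamini-Hochberg as elsewhere. The Benjamini-Yekutieli adjustment, which the paper names for its volcano plots, gave 0 calls in all 5 group comparisons. Promoter sequences and positions came from RefSeq (GRCm38.p6), in which all 9 symbols matched a gene and 8, all but Myc, had a promoter window. Python 3.11.15 and matplotlib 3.10.9 were used for figures.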

Additional observations from a re-analysis of the deposited data

How the results depend on the processing

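Of 294 alternative values for 22 results, 277 kept their direction and their side of the threshold, 13 changed sign and 4 gained significance. In olaparib against vehicle, Ccnd3 was -0.24 with median scaling, -0.17 with quantile normalization, -0.038 with a block for the series of tumor numbers and -0.23 with the scaling factor as a covariate. That covariate also turned Trp53 to -0.28 and Abl1 to -0.076, Trp53 to -0.066 in ADU-S100 against vehicle, and its interaction term to 0.070. Leaving out 1 tumor gave Atm -0.25 to 0.094, Ccnd3 -0.21 to 0.30 and Myc -0.54 to 0.023.

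Leaving out 1 tumor gave 0 to 55 genes and 0 to 1 members called in olaparib against vehicle, 0 to 54 genes and 0 to 1 members in combination against olaparib, and 0 to 86 genes and 0 to 3 members in the interaction, the upper value each time without olaparib tumor 1521. The member called in the first 2 was Trp53 (2.03 and -2.42). In combination against ADU-S100, 1 gene was called with a pseudocount of 10, with median scaling and with quantile normalization, and 0 to 1 with 1 tumor left out (1 without tumor 1506). In combination against vehicle, 4 genes were called with the factor covariate and 3 by the unpaired t-test. The cause was not tested. Scaling moved the median of all genes for olaparib against vehicle from 0.45 to 0.10 (median scaling) and -0.01 (quantile), and the members' median from 0.02 to -0.33 and -0.28, with 5 lower and 3 higher. Count-based tests were planned and not run, because in some tumors the lowest value was not the step behind the counts. No paired analysis was possible because the groups share no tumor number. With 3 tumors a group and 7 to 19 counts behind some Cdk1 and Birc5 values, a p that misses the threshold does not show that a gene did not change.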
